A study of Homo sapiens with 15 samples.

Results

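IDH2R140Q was compared with IDH2R140W, 3 libraries against 3 of the 15 in the series. These are lines of TF-1, erythroleukaemia cells of human origin that need a cytokine such as GM-CSF for growth, in which base editing, a conversion of single bases without a double-strand break, replaced the same arginine of IDH2 by glutamine (Q) or by tryptophan (W). The libraries were chosen by the genotype in their labels and no measured value entered the choice. The other groups, 3 libraries each, are the unedited Parental cells and the edited lines IDH1R132H and IDH2R172K. All cells grew in RPMI-1640 with 10% FBS. Parental cells had 2 ng/ml GM-CSF and the 4 edited lines had none, so that genotype and medium cannot be told apart in any value set against Parental, whereas IDH2R140Q and IDH2R140W shared their medium. The labels do not say whether a line is 1 clone or a pool of edited cells, nor whether its libraries came from separate cultures. Differences between the 2 alleles and differences between the 2 lines that carry them therefore cannot be told apart, and p-values describe the spread between libraries, which may be technical alone.

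IDH2 is the mitochondrial NADP-dependent isocitrate dehydrogenase, which turns isocitrate into 2-oxoglutarate. Substitutions of its active site arginines, R140 and R172, are recurrent in acute myeloid leukaemia and give the enzyme a new activity that reduces 2-oxoglutarate to D-2-hydroxyglutarate. That metabolite competes with 2-oxoglutarate at dioxygenases such as the TET DNA demethylases and the JmjC histone demethylases. Mutant IDH is known for impaired differentiation of blood progenitors. TF-1 cells hold erythroid, megakaryocytic and mast cell or basophil genes side by side, so that these programmes can be read in a single line. D-2-hydroxyglutarate itself was not measured in the values used here.

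Both lines carry an edit of the same residue of IDH2 (ENSG00000182054, GRCh38 chr15:90083045-90102504, minus strand), R140, and IDH2R172K carries one of R172. A TPM value does not tell alleles apart, and the edits themselves were not checked.

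Expression was deposited as TPM, reads per transcript length expressed as a share of the library. Read numbers cannot be had from it, so depth is unknown and values carry no counting interval. Between 13526 and 13792 symbols reached 1 TPM in the IDH2R140Q libraries and between 12946 and 13223 in those of IDH2R140W. Cytosolic ribosomal protein genes took 13.5% to 13.6% of TPM in IDH2R140Q and 17.9%, 18.1% and 21.6% in IDH2R140W replicates 1, 2 and 3, so that replicate 3 of IDH2R140W stood apart. Mitochondrially encoded transcripts took 5.65%, 6.91% and 5.68% in IDH2R140Q, replicate 2 being highest, and 3.98% to 4.36% in IDH2R140W. Of the defining TF-1 genes, CD34, GATA2, TAL1, SPI1, ITGA2B and CSF2RB were present in all 6 libraries, the lowest value being 71.4 TPM for TAL1. KIT, another of these genes, was much lower, at 1.75 to 2.69 TPM in IDH2R140Q and 10.7 to 15.98 in IDH2R140W. GATA1 and CSF2RA are listed at 0 in all 15 libraries, Parental included. A listed 0 can be a failed estimate, and whether these are was not tested, so that no absence is read from them. Of 20 lymphocyte markers 9 were tested, and the summed level of all 20 was 31.01 to 38.7 TPM in IDH2R140Q and 43.1 to 47.9 in IDH2R140W. Of 16 fibroblast, endothelial and epithelial markers 7 were tested, and all 16 summed to 665 to 687 TPM in IDH2R140Q and 629.7 to 665 in IDH2R140W. Most of that sum was the keratin KRT18, at 457 ± 14.4 TPM in IDH2R140Q and 472 ± 9.83 in IDH2R140W, while 9 of these markers and 12 of the lymphocyte markers were under 1 TPM in both lines.

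**Figure D1:**
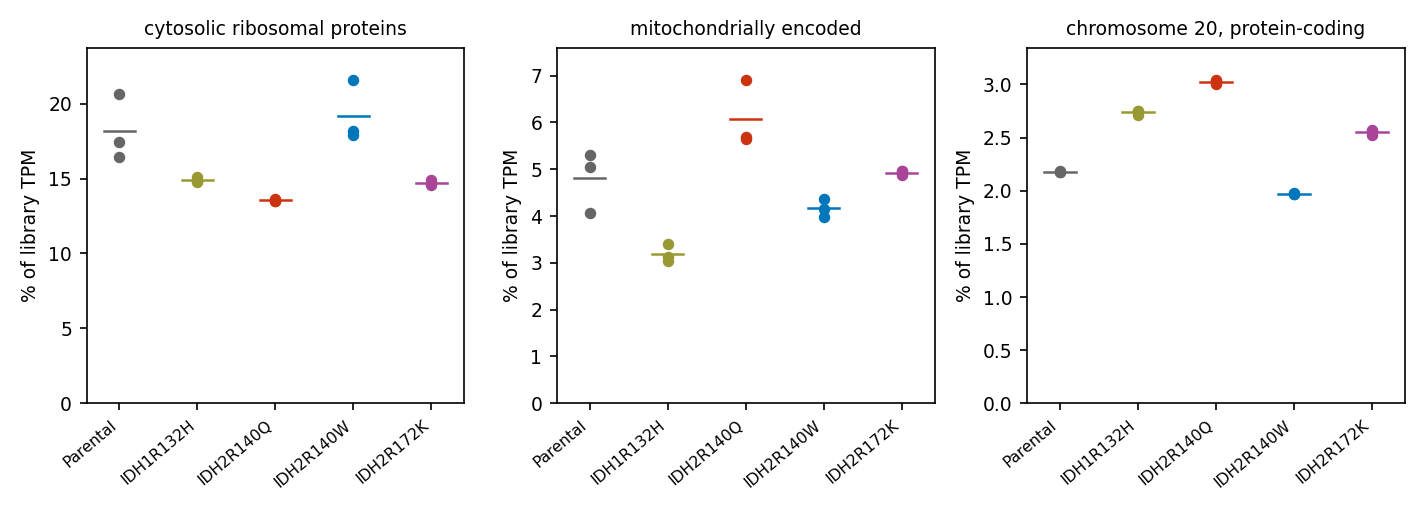
Share of each library's TPM held by cytosolic ribosomal protein genes, by mitochondrially encoded transcripts and by protein-coding genes of chromosome 20, in percent on the y axis, with 1 point per library, a line at the mean and the 5 groups on the x axis. IDH2R140Q held the lowest ribosomal protein share and the highest mitochondrial and chromosome 20 shares of the 5 groups.

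The first question was how many genes separated 2 lines edited at a single residue. A symbol was called at a limma adjusted p under 0.05 and an absolute log2 difference of at least 1 on the log2(TPM + 1) scale, which understates the change of genes at low level. Differences are IDH2R140Q minus IDH2R140W throughout, so a positive value means higher in IDH2R140Q. Of 14881 tested symbols 847 were called (5.69%), 624 higher (4.19%) and 223 lower in IDH2R140Q (1.50%). At any fold, 4902 symbols (32.9%) had an adjusted p under 0.05. The 3 libraries of one line lay entirely above those of the other for 7275 symbols (48.9%), with IDH2R140Q above for 5530 (37.2%) and below for 1745 (11.7%). Against the third IDH2 line in the same medium, IDH2R172K, 1126 symbols were called for IDH2R140Q (7.57%) and 1021 for IDH2R140W (6.86%). The 2 lines with the same residue edited thus differed in 847 called symbols, and each differed from IDH2R172K in more. These 3 comparisons share libraries, and the differences between their counts were not tested. Against Parental, 1492 symbols were called for IDH2R140Q (10.0%) and 711 for IDH2R140W (4.78%).

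The median symbol stood 0.19 higher in IDH2R140Q, and each gene list's median is printed after subtracting that shift. Median-ratio scaling moved this median to 0.01, and the share of calls that were higher in IDH2R140Q from 73.7% to 53.3% (393 higher, 345 lower), and quantile normalisation gave 49.7% (374 higher, 379 lower). The excess of higher calls therefore depended on the scaling. None of the 94 symbols named by rule reversed its direction under the 19 alternatives run. Of these symbols, 92 were named because they were called in the same libraries, so a reversal was unlikely from the start.

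**Figure D2:**
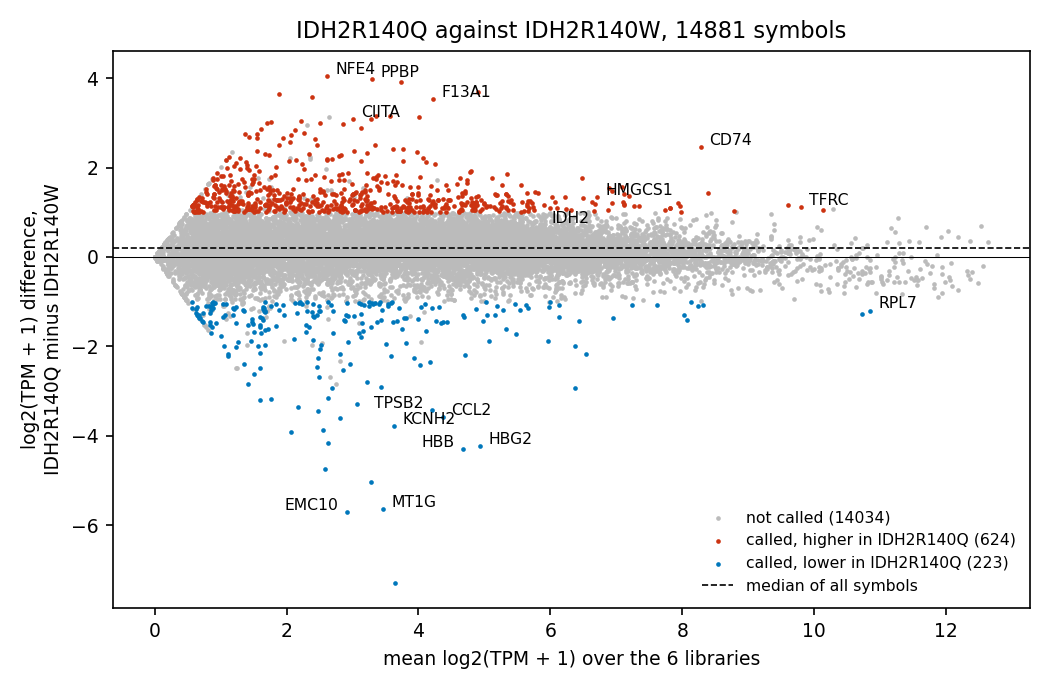
Difference of each tested symbol on the log2(TPM + 1) scale, IDH2R140Q minus IDH2R140W (y axis), against its mean log2(TPM + 1) over the 6 libraries (x axis). Red points (624) and blue points (223) were called, and the dashed line marks the median of all symbols at 0.19.

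IDH2 and the enzymes that handle 2-hydroxyglutarate were below the fold needed for a call. IDH2 stood at 75.8, 74.5 and 73.8 TPM in IDH2R140Q and 46.8, 47.9 and 41.6 TPM in IDH2R140W (log2 difference 0.71, SE 0.08, adjusted p = 1.72e-05, limma). Both sets of libraries were apart, but the difference was below 2-fold and IDH2 was not called. Parental had 52.7 ± 3.18 TPM (mean ± SD, n = 3, as for all group levels below) and IDH2R172K 31.8 ± 1.72. IDH1, the cytosolic enzyme (ENSG00000138413, GRCh38 chr2:208236227-208266074, minus strand), stood at 57.5, 56.4 and 67.04 TPM in IDH2R140Q and 36.5, 36.4 and 30.9 TPM in IDH2R140W (log2 difference 0.78, SE 0.09, adjusted p = 2.63e-05) and was not called either, with Parental at 70.3 ± 3.81. An exact permutation test of 3 against 3 has a smallest two-sided p of 0.10, and both genes reached it. D2HGDH, which encodes the dehydrogenase that oxidises D-2-hydroxyglutarate, was 15.7 ± 2.38 against 8.66 ± 2.19 TPM (log2 difference 0.80, limma adjusted p = 0.0119). Of 8 tested IDH and 2-hydroxyglutarate enzymes 0 were called, against 5.69% of all symbols. Of these enzymes 5 lay above IDH2R140W in every IDH2R140Q library, as did 37.2% of all symbols.

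Among the enzymes that set and remove DNA methylation, 1 of 8 was called, against 5.69% of all symbols. Of the 8, 7 lay above IDH2R140W in every IDH2R140Q library (37.2% of all symbols). The median was 0.30 relative to all symbols, and 3 members passed at any fold (32.9% of all symbols), all of them higher. DNMT3B, a de novo DNA methyltransferase, stood at 45.3, 48.6 and 47.6 TPM in IDH2R140Q and 23.8, 23.9 and 14.4 TPM in IDH2R140W (log2 difference 1.18, SE 0.19, adjusted p = 3.35e-04, limma), with Parental at 64.2 ± 17.4. The gene lies on chromosome 20, where most genes were higher in IDH2R140Q. IDH2R140W replicate 3 was the lowest of the 6, and without it the difference was 0.96 and not called. It was also not called after median-ratio scaling (0.98) and quantile normalisation (0.97). TET2 was 6.08 ± 0.263 against 4.53 ± 1.73 TPM, TET3 12.4 ± 1.26 against 6.30 ± 2.66 and DNMT1, the maintenance enzyme, 315 ± 21.8 against 213 ± 22.7; none of these was called. Of 29 JmjC demethylases and other 2-oxoglutarate dioxygenases and of 25 enzymes of the TCA cycle and glutamine use, 0 were called in limma's test. At an adjusted p under 0.05 with no fold threshold, 11 of the dioxygenases and 13 of the TCA and glutamine enzymes passed, against 32.9% of all symbols.

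Globin transcripts were lower in IDH2R140Q. Of 9 tested globin genes 5 were called lower and 0 higher, with a median −2.34 relative to all symbols, against 1.50% called lower over all symbols, and 8 of 9 had every IDH2R140Q library below every IDH2R140W library (11.7% of all symbols). In bulk RNA, fewer cells of a type and less RNA per cell cannot be told apart. HBB, the adult beta chain, stood at 5.16, 4.63 and 4.49 TPM in IDH2R140Q and 102, 102 and 134 TPM in IDH2R140W (log2 difference −4.29, SE 0.22, adjusted p = 7.81e-09, limma). HBG2, a fetal gamma chain, stood at 5.42, 7.49 and 5.31 TPM in IDH2R140Q and 113, 127 and 158 TPM in IDH2R140W (log2 difference −4.24, SE 0.20, adjusted p = 3.80e-09). HBD, the delta chain, stood at 45.4, 40.1 and 42.9 TPM in IDH2R140Q and 184, 187 and 224 TPM in IDH2R140W (log2 difference −2.18). For these 3 genes the lines did not overlap. HBG1, nearly identical to HBG2 so that reads may be split between them, and HBE1, the embryonic epsilon chain, were also lower, at −3.88 and −2.15. Alpha-type genes were not called, HBA1 at 191 ± 0.947 against 328 ± 42 TPM (−0.77) and HBA2 at 123 ± 1.63 against 185 ± 31.2 (−0.57). After median-ratio scaling or quantile normalisation 6 globin genes were called lower. The 5 called without such rescaling all lie in the beta cluster of chromosome 11. HBBP1, a pseudogene of that cluster, stood at 0.50, 0.92 and 0.71 TPM in IDH2R140Q and 55.7, 54.6 and 53.2 TPM in IDH2R140W (log2 difference −5.03, adjusted p = 2.44e-10).

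Against Parental the 2 lines did not take the same side for each chain. HBG2 was 880.4 ± 225 TPM in Parental and 676 ± 62.4 in IDH2R172K, above both lines. HBB was 68.99 ± 8.31 in Parental, between the lines, and HBD was 57.2 ± 4.16, with IDH2R140W above it and IDH2R140Q below it. All globin genes together took 0.0387% to 0.0388% of TPM in IDH2R140Q, 0.0919% to 0.118% in IDH2R140W and 0.252% to 0.349% in Parental.

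Of 16 erythroid transcription factors and globin switching genes 2 were called, both higher in IDH2R140Q (4.19% of all symbols). IGF2BP1, an RNA-binding protein linked to fetal globin expression, stood at 8.82, 11.3 and 9.47 TPM in IDH2R140Q and 1.05, 0.64 and 0.30 TPM in IDH2R140W (log2 difference 2.73, SE 0.28, adjusted p = 6.28e-06, limma). LIN28B, which blocks maturation of let-7 microRNAs and is known for raising fetal globin, stood at 3.22, 3.02 and 3.34 TPM in IDH2R140Q and 0.19, 0.15 and 0.18 TPM in IDH2R140W (log2 difference 1.84). IDH2R140W was thus near 0 for both, while Parental had 28.4 ± 13.9 and 10.9 ± 2.11 TPM. NFE4, described as part of a stage selector complex at the gamma globin promoter, gave the largest rise among the named genes, at 27.5, 20.3 and 24.2 TPM in IDH2R140Q and 0.15, 0.66 and 0.78 TPM in IDH2R140W (log2 difference 4.05, SE 0.17, adjusted p = 2.20e-09), and Parental stood near IDH2R140Q at 29.2 ± 4.61. The 3 genes tied to fetal globin were higher in the line with less HBG2. KLF1, the erythroid master factor, was 109 ± 2.68 against 108 ± 4.62 TPM (0.01), and BCL11A, the repressor of fetal globin, 5.97 ± 0.826 against 4.66 ± 1.05 (0.31); neither was called.

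Of 27 red cell membrane and iron uptake genes 3 were called lower (1.50% of all symbols) and 1 higher (4.19%). CA1, the red cell carbonic anhydrase, stood at 11.6, 9.93 and 12.2 TPM in IDH2R140Q and 55.01, 58.7 and 50.99 TPM in IDH2R140W (log2 difference −2.19, SE 0.10, adjusted p = 3.91e-09, limma). CA2, another carbonic anhydrase, differed by −1.21. Both were below Parental in both lines. TFRC, the transferrin receptor, stood at 1320.1, 1244 and 1359.6 TPM in IDH2R140Q and 723, 676 and 453 TPM in IDH2R140W (log2 difference 1.11, SE 0.17, adjusted p = 2.14e-04), and was not called without IDH2R140W replicate 3 (0.90) or after median-ratio scaling (0.90).

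Megakaryocyte and platelet genes were higher in IDH2R140Q. Of 20 tested members 11 were called higher and 0 lower, against 4.19% called higher over all symbols, and the median was 0.97 relative to all symbols. PPBP, a platelet alpha granule chemokine, stood at 37.2, 38.9 and 38.6 TPM in IDH2R140Q and 1.14, 1.86 and 1.49 TPM in IDH2R140W (log2 difference 3.98, SE 0.22, adjusted p = 2.02e-08, limma). F13A1, the A subunit of coagulation factor XIII, stood at 60.99, 61.1 and 65.7 TPM in IDH2R140Q and 4.86, 5.14 and 3.55 TPM in IDH2R140W (log2 difference 3.54, SE 0.16, adjusted p = 2.72e-09). LTBP1, which holds latent TGF-beta in the matrix, stood at 37.2, 32.5 and 33.5 TPM in IDH2R140Q and 3.67, 3.17 and 2.18 TPM in IDH2R140W (log2 difference 3.16). Across these 3 genes the IDH2R140W libraries reached at most 5.14 TPM and the IDH2R140Q libraries at least 32.5. SELP, the granule membrane selectin, was 23.1 ± 1.11 against 3.30 ± 0.770 TPM (2.50), RAB27B, a granule secretion GTPase, 12.9 ± 2.61 against 2.07 ± 0.799 (2.20), and THBS1, thrombospondin, 12.3 ± 3.14 against 2.75 ± 0.920 (1.83). ITGB3, the beta chain of the fibrinogen receptor, and SPARC and GP1BB were also called, at 1.26, 1.37 and 1.08. Not called were ITGA2B, the partner of ITGB3, at 399.97 ± 7.32 against 425 ± 6.39 (−0.09), and GP9 6.07 ± 2.26 against 4.75 ± 0.719 (0.25). Parental stood with IDH2R140W for F13A1 at 3.65 ± 1.13 and below both lines for PPBP at 0.267 ± 0.275, while IDH2R172K reached 44.9 ± 2.67 for F13A1 and 47.7 ± 5.43 for SELP. The counts under the alternatives ranged from 10 to 12 called higher.

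Mast cell, basophil and eosinophil genes were mostly lower in IDH2R140Q. Of 21 tested members 9 were called lower (1.50% of all symbols) and 1 higher (4.19%), with a median −1.09 relative to all symbols, and 14 lay below IDH2R140W in every library (11.7% of all symbols). TPSB2, a mast cell tryptase, stood at 5.14, 4.81 and 3.98 TPM in IDH2R140Q and 53, 55.3 and 72.1 TPM in IDH2R140W (log2 difference −3.43, SE 0.18, adjusted p = 1.08e-08, limma). TPSAB1 stood at 1.51, 1.21 and 0.64 TPM in IDH2R140Q and 17.8, 16.7 and 18.1 TPM in IDH2R140W (log2 difference −3.15) and TPSD1 at 3.01, 3.61 and 2.38 TPM in IDH2R140Q and 28.1, 31.04 and 26.8 TPM in IDH2R140W (−2.90); these tryptase genes are near copies, so reads may be split between them. PRG2, the major basic protein of eosinophil granules, stood at 26.5, 29.9 and 30.6 TPM in IDH2R140Q and 188, 178 and 348 TPM in IDH2R140W (log2 difference −2.93, SE 0.27, adjusted p = 2.18e-06), with IDH2R140W replicate 3 highest. All libraries of the 2 lines were apart for these 4 genes. For the tryptases the line that stood away was IDH2R140W, since TPSB2 was 2.77 ± 0.346 TPM in Parental, 3.53 ± 0.250 in IDH2R172K and 2.27 ± 0.902 in IDH1R132H, whereas PRG2 was 309 ± 126 in Parental. SRGN, the granule proteoglycan, and ENPP3, a basophil surface enzyme, differed by −1.41 and −2.22. The high-affinity IgE receptor went the other way: MS4A2, its beta chain, was called higher (2.22 ± 0.510 against 0.477 ± 0.124 TPM, 1.12), and FCER1A, its alpha chain, was 637 ± 40.6 against 319 ± 13.7 TPM (1.00), just under the fold threshold. Under the alternatives the count called lower ranged from 8 to 12.

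**Figure D3:**
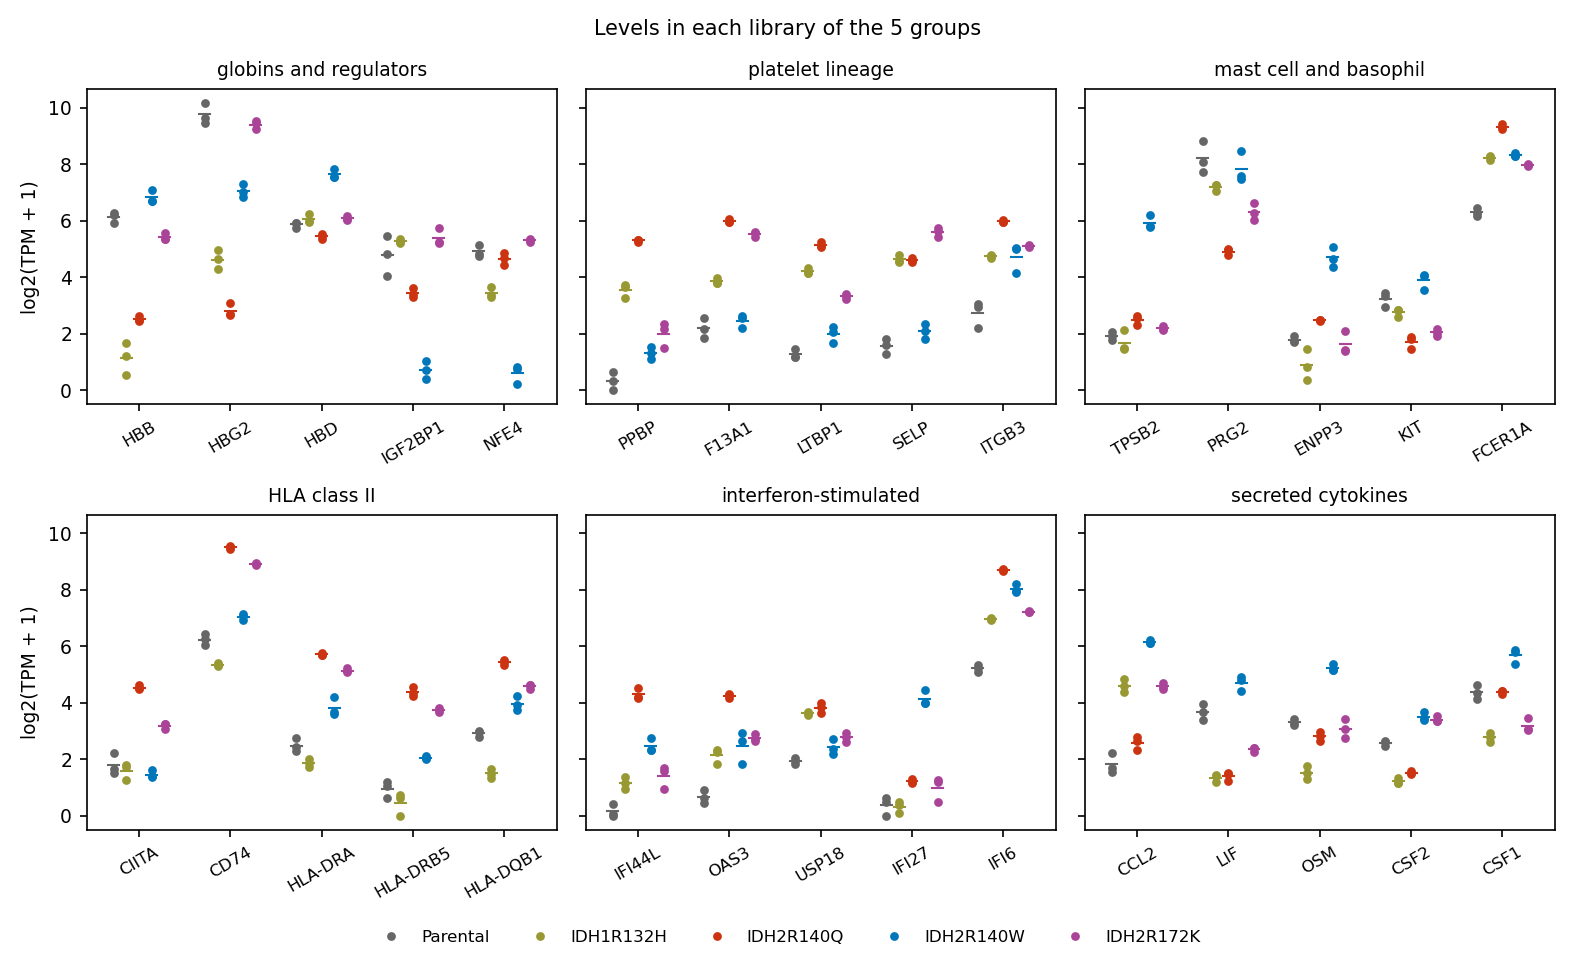
Levels of the named genes in every library on the log2(TPM + 1) scale (y axis), 1 point per library and a line at each group mean, with the 5 groups in the colours of the legend and the genes arranged in panels by role. The 3 libraries of IDH2R140Q (red) and IDH2R140W (blue) lie apart in every gene shown.

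Of 15 stem and progenitor regulators 1 was called lower, KIT, and 1 higher, MYCN (1.50% and 4.19% of all symbols), and the median was −0.08 relative to all symbols. KIT, the stem cell factor receptor shared by progenitors and mast cells, stood at 1.75, 2.69 and 2.50 TPM in IDH2R140Q and 15.98, 15.5 and 10.7 TPM in IDH2R140W (log2 difference −2.17, SE 0.18, adjusted p = 8.16e-07, limma). MYCN, a MYC family factor, stood at 13.5, 14.1 and 14.9 TPM in IDH2R140Q and 2.61, 2.10 and 1.89 TPM in IDH2R140W (log2 difference 2.25, SE 0.12, adjusted p = 1.49e-08), with Parental at 0.573 ± 0.108. Of 21 HOX, MEIS and PBX genes 2 were called, both higher (4.19% of all symbols), while 3 lay above IDH2R140W in every library and 8 below. MEIS1, a cofactor of HOX proteins, was 17.5 ± 1.71 against 3.19 ± 0.580 TPM (2.15). HOXA9 was not called, at 0.790 ± 0.252 against 0.677 ± 0.408 TPM, and the median of the list was −0.34 relative to all symbols. CTSG, a neutrophil granule protease, and GFI1, a repressor of granulocyte development, were lower, at −1.06 and −1.45, among 7 tested of 20 azurophil granule genes (1.50% of all symbols were called lower). CTSG was not called without IDH2R140W replicate 3 (−0.95) or without IDH2R140Q replicate 1 (−0.93).

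HLA class II genes, which present peptides to CD4+ T cells and are switched on together by the coactivator CIITA, were higher in IDH2R140Q. Of 11 tested members 8 were called higher (4.19% of all symbols) and 0 lower, with a median 1.28 relative to all symbols. CIITA stood at 23.5, 22.1 and 21.4 TPM in IDH2R140Q and 1.57, 2.07 and 1.63 TPM in IDH2R140W (log2 difference 3.09, SE 0.19, adjusted p = 3.97e-08, limma). CD74, the invariant chain, stood at 752, 727 and 703 TPM in IDH2R140Q and 139.9, 133 and 121 TPM in IDH2R140W (log2 difference 2.46, SE 0.08, adjusted p = 2.44e-10), the highest level in the list. HLA-DRA stood at 50.5, 51.03 and 53.6 TPM in IDH2R140Q and 11.7, 11.3 and 17.4 TPM in IDH2R140W (log2 difference 1.89) and HLA-DRB5 at 22.4, 19.5 and 18.1 TPM in IDH2R140Q and 3.34, 3.13 and 3.08 TPM in IDH2R140W (2.32). In all 4 the IDH2R140Q libraries lay above every IDH2R140W library. Parental was lower than both lines for CD74 (74.9 ± 9.93 TPM) and HLA-DRA (4.65 ± 0.932), IDH1R132H was lower still for CD74 (39.9 ± 1.55), and IDH2R172K lay between the 2 lines (481 ± 9.39). Several of these genes, HLA-DRA among them, are the sum of more than 1 row of the table, and without symbols on more than 1 row 6 members were tested and 3 were called, all higher. Of 9 class I presentation genes 0 were called (5.69% of all symbols), with 4 of 9 above IDH2R140W in every library, against 37.2% of all symbols.

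Interferon-stimulated genes that passed the test were mostly higher in IDH2R140Q, with small differences. Of 47 tested members 30 had an adjusted p under 0.05 at any fold (32.9% of all symbols), 28 of them higher and 2 lower. With the fold threshold 5 were called higher (4.19% of all symbols) and 1 lower (1.50%). The median was 0.29 relative to all symbols, and 32 members lay above IDH2R140W in every library (37.2% of all symbols) and 3 below (11.7%). IFI44L, a gene of unknown biochemical function induced by type I interferon, stood at 22.2, 17.6 and 17.03 TPM in IDH2R140Q and 5.81, 4.02 and 4.0 TPM in IDH2R140W (log2 difference 1.84, SE 0.22, adjusted p = 2.30e-05, limma). OAS3, a sensor of double-stranded RNA, stood at 18.6, 17.02 and 18.7 TPM in IDH2R140Q and 6.55, 5.30 and 2.53 TPM in IDH2R140W (log2 difference 1.79, SE 0.24, adjusted p = 6.17e-05), and USP18, which removes ISG15 from proteins, at 11.5, 13.6 and 14.8 TPM in IDH2R140Q and 5.56, 4.20 and 3.52 TPM in IDH2R140W (log2 difference 1.41). HERC6 and TRIM22 were also called, at 1.07 and 1.12. IFI27 went against these at 1.29, 1.25 and 1.47 TPM in IDH2R140Q and 15, 14.99 and 20.8 TPM in IDH2R140W (log2 difference −2.93, SE 0.23, adjusted p = 5.48e-07), with Parental at 0.317 ± 0.287 and IDH2R172K at 1.04 ± 0.550, so that IDH2R140W was the high group. IFI6, the most abundant of the interferon-stimulated genes named here, was 417 ± 14.4 against 262 ± 27.8 TPM (0.67), with Parental at 36.4 ± 3.43, and was not called. The count called higher ranged from 3 (median-ratio scaling, quantile normalisation, or without IDH2R140W replicate 3) to 10 (without IDH2R140W replicate 2), and was 9 without IDH2R140W replicate 1 and 8 with a pseudocount of 0.1.

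The promoters of 3 of these genes are printed because genes with the same element were called in opposite directions. The windows run from 250 bases before to 50 after the gene's start in RefSeq (GRCh38.p14), on the strand of the gene, and capitals mark matches on either strand to the interferon-stimulated response element, searched as a pair of GAAA with any 2 bases between them. IFI44L (chr1:78620198-78620497, plus strand) holds matches that begin at −164 and −73 from the start, OAS3 (chr12:112938224-112938523, plus strand) at −143 and −12, and IFI27 (chr14:94110486-94110785, plus strand) at −108 and −95, the first of these on the reverse strand.
IFI44L: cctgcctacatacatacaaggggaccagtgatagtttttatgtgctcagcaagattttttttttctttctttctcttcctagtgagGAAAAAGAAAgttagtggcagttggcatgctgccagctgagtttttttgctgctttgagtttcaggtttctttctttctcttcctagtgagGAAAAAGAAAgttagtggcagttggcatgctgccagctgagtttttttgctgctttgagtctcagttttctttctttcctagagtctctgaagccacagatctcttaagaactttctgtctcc
OAS3: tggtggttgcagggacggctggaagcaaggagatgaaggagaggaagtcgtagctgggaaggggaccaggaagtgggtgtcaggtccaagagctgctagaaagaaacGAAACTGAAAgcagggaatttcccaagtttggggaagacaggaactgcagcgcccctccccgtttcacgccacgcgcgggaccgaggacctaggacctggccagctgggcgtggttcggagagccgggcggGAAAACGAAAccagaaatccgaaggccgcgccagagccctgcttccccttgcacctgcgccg
IFI27: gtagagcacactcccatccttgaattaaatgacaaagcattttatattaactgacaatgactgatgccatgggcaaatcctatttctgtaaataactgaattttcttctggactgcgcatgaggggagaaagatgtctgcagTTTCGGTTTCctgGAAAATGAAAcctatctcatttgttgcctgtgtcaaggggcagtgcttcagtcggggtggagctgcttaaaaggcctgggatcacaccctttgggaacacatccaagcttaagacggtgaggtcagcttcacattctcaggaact
The element was found in 996 of 27305 promoters of this length (3.65%). Of the 47 tested interferon-stimulated genes 36 had a promoter in this set, and 23 of these held the element (63.9%). A match is a run of letters and not a measured site.

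Several secreted cytokines and chemokines were lower in IDH2R140Q. Of 14 haematopoietic growth factor genes 4 were called lower and 0 higher, and of 24 NF-kB factors and inflammatory targets 5 were called lower and 0 higher, against 1.50% called lower and 4.19% higher over all symbols. At any fold 5 growth factor genes were lower and 2 higher, and 7 and 2 of the NF-kB list. The growth factor genes summed to 892 to 910.3 TPM in IDH2R140Q and 905 to 988 in IDH2R140W, which overlap. CCL2, a monocyte-attracting chemokine, stood at 5.32, 5.89 and 3.99 TPM in IDH2R140Q and 68.8, 68.7 and 74.5 TPM in IDH2R140W (log2 difference −3.57, SE 0.17, adjusted p = 5.81e-09, limma), with Parental at 2.63 ± 0.936 and IDH2R172K at 22.98 ± 1.71. LIF, a cytokine of the IL-6 family, stood at 1.82, 1.36 and 1.86 TPM in IDH2R140Q and 29.1, 27.1 and 20.3 TPM in IDH2R140W (log2 difference −3.30, SE 0.17, adjusted p = 9.81e-09), and OSM, its close relative, at 6.06, 5.28 and 6.88 TPM in IDH2R140Q and 34.6, 40.3 and 34.5 TPM in IDH2R140W (log2 difference −2.41). CSF2, the gene of GM-CSF, was 1.89 ± 0.0902 against 10.4 ± 1.11 TPM (−1.98), with Parental, which was given the protein, at 5.0 ± 0.359 and IDH2R172K at 9.64 ± 0.782. CSF1, the macrophage growth factor, was 19.98 ± 0.893 against 51.1 ± 8.81 (−1.30). All 5 had every IDH2R140Q library below every IDH2R140W library. CCL3 was listed at 0 in the 3 IDH2R140Q libraries and at 1.25, 1.88 and 2.22 TPM in IDH2R140W, and CCL4, CCL7 and IL1A were low in both lines and also called, at −1.35, −1.23 and −1.21, with CCL7 not called without IDH2R140W replicate 3 or IDH2R140Q replicate 3.

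Receptors and signalling targets of cytokines were examined next. Of 24 cytokine receptor chains 3 were called lower, KIT, IL1RL1 and IL18R1, and 1 higher, IL10RA, against 1.50% lower and 4.19% higher over all symbols. IL10RA, at 1.07, was not called after median-ratio scaling (0.87) or without IDH2R140W replicate 3 (0.92). IL1RL1, the IL-33 receptor of mast cells, stood at 1.79, 1.01 and 0.93 TPM in IDH2R140Q and 14.9, 16.7 and 9.21 TPM in IDH2R140W (log2 difference −2.68, SE 0.25, adjusted p = 2.35e-06, limma). CSF2RB, the shared beta chain of the GM-CSF, IL-3 and IL-5 receptors, was 118 ± 2.52 against 167 ± 32.3 TPM (−0.48) and not called. Of 18 STAT5 feedback and target genes 4 were called lower, which were LIF, OSM, SOCS3 and ID1, and 0 higher, against the same shares. SOCS3, a feedback inhibitor of cytokine signalling, was 10.1 ± 0.436 against 23.4 ± 3.57 (−1.13), and ID1, an inhibitor of helix-loop-helix factors, 102 ± 4.24 against 218 ± 15.5 (−1.08), with Parental at 477 ± 72.03. CISH, the feedback inhibitor most directly tied to STAT5, was 50.4 ± 2.35 against 39.02 ± 1.64 (0.36), and was not called. In a separate list, BCL2, the survival protein, was the 1 called of 16 BCL2 family genes (6.25%, against 5.69% of all symbols). BCL2 was 12.04 ± 1.23 against 5.11 ± 1.80 (1.14) and was not called without IDH2R140W replicate 3 (0.88). Median-ratio scaling, quantile normalisation and library weights also removed its call.

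Integrins, cadherins and other adhesion genes were higher in IDH2R140Q where they were called. Of 28 members 7 were called higher (4.19% of all symbols) and 0 lower. CDH2, N-cadherin, stood at 30.6, 28.5 and 32.1 TPM in IDH2R140Q and 4.57, 7.58 and 3.33 TPM in IDH2R140W (log2 difference 2.41, SE 0.23, adjusted p = 3.81e-06, limma). ITGA6, a laminin receptor chain, was 12.1 ± 0.822 against 1.93 ± 0.802 TPM (2.20) and CDH5, endothelial cadherin, 4.86 ± 0.307 against 0.467 ± 0.365 (2.03). ITGB4, the partner of ITGA6 and one of the 12 largest rises, stood at 56.7, 44.5 and 40.1 TPM in IDH2R140Q and 4.73, 3.70 and 5.06 TPM in IDH2R140W (log2 difference 3.12). Of 18 matrix and protease genes 3 were called higher (4.19% of all symbols) and 3 lower (1.50%). LAMC1, a laminin chain, was 15.2 ± 2.04 against 1.11 ± 0.680 (2.99) and MMP9, a gelatinase, 22.8 ± 1.45 against 2.20 ± 0.191 (2.90), whereas PLAU, urokinase, and SPP1, osteopontin, differed by −1.56 and −1.45. Of 18 TGF-beta, BMP and ID genes 4 were called higher and 1 lower, against the same shares. BMPER, a secreted BMP modulator, was 10.7 ± 0.620 against 0.640 ± 0.270 (2.84), and BMP6 and the decoy receptor BAMBI differed by 1.42 and 1.22, with BAMBI not called after quantile normalisation (0.98). MMP9 and ID1 lie on chromosome 20.

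Cholesterol synthesis genes were higher in IDH2R140Q as a group of small differences. Of 22 members 20 had every IDH2R140Q library above every IDH2R140W library (37.2% of all symbols), 3 were called higher (4.19%) and 0 lower, and 17 had an adjusted p under 0.05 at any fold (32.9%), all of them higher. The median was 0.39 relative to all symbols. HMGCS1, which makes HMG-CoA, stood at 166, 157 and 174 TPM in IDH2R140Q and 73.6, 67.2 and 55.1 TPM in IDH2R140W (log2 difference 1.34, SE 0.11, adjusted p = 6.68e-07, limma). MSMO1, a sterol demethylase, differed by 1.15. Parental stood nearer to IDH2R140Q for HMGCS1, at 153 ± 22.5 TPM. After median-ratio scaling or quantile normalisation 1 member was called.

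Several genes were near 0 in one of the 2 lines compared, and for EMC10, BTBD6 and RP11-462G2.1 in no other group. RP11-462G2.1 averaged 0.09 TPM in IDH2R140Q and 15.8 to 27.9 in the other groups. EMC10 belongs to the EMC, a complex that inserts proteins into the membrane of the endoplasmic reticulum. The gene (ENSG00000161671, GRCh38 chr19:50476400-50490870, plus strand) stood at 0, 0.15 and 0 TPM in IDH2R140Q and 55.5, 56.3 and 48.8 TPM in IDH2R140W, the largest fall with a fold (log2 difference −5.70, SE 0.10, adjusted p = 1.92e-13, limma). Parental had 32.4 ± 3.59 TPM, IDH2R172K 48.3 ± 2.06 and IDH1R132H 33.3 ± 0.885, so IDH2R140Q alone was near 0. None of the other 8 EMC subunits tested was called, where 5.69% of all symbols were. BTBD6, a BTB domain protein (ENSG00000184887, GRCh38 chr14:105248490-105251093, plus strand), went the other way at 13.4, 11.3 and 11.6 TPM in IDH2R140Q and 0, 0.15 and 0 TPM in IDH2R140W (log2 difference 3.64), with Parental at 8.30 ± 0.709, IDH1R132H at 10.4 ± 1.31 and IDH2R172K at 9.07 ± 1.42. APOC2, a cofactor of lipoprotein lipase, stood at 0, 0.54 and 0 TPM in IDH2R140Q and 23.3, 33.3 and 34.95 TPM in IDH2R140W (log2 difference −4.75), and is listed at 0 in IDH1R132H. SNORD99, a small nucleolar RNA measured in a poly(A) library, is listed at 0 in the 3 IDH2R140Q libraries and at 119, 248 and 126 TPM in IDH2R140W, is also listed at 0 in some libraries of each other group, and lost its call in 4 of the 19 alternatives. MT1G, a zinc-binding metallothionein, stood at 0.55, 0.79 and 0.38 TPM in IDH2R140Q and 74.6, 75.2 and 79.7 TPM in IDH2R140W (log2 difference −5.63, SE 0.19, adjusted p = 2.44e-10), with Parental at 7.20 ± 1.97 and IDH2R172K at 0.683 ± 0.308. Of 7 metallothionein and zinc transport genes MT1G alone was called, against 5.69% of all symbols, while MT2A was 119.5 ± 4.70 against 236 ± 27.02 (−0.97).

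The remaining large differences were in genes of varied function. KCNH2, a potassium channel of the heart, stood at 2.11, 2.50 and 2.40 TPM in IDH2R140Q and 48.2, 48.2 and 38.8 TPM in IDH2R140W (log2 difference −3.78), with Parental at 102 ± 13. PTPRCAP, which binds the phosphatase CD45, stood at 1.49, 0.72 and 0.88 TPM in IDH2R140Q and 22.2, 24.3 and 23.8 TPM in IDH2R140W (−3.61). MS4A4A, a myeloid membrane protein, stood at 45.1, 54.8 and 52.1 TPM in IDH2R140Q and 1.40, 3.95 and 2.38 TPM in IDH2R140W (3.91), with Parental above both at 208 ± 17.99. The IDH2R140Q and IDH2R140W libraries did not overlap in any of these genes or in the next ones. MIPOL1 stood at 102, 100.04 and 117 TPM in IDH2R140Q and 8.40, 7.84 and 5.89 TPM in IDH2R140W (3.69) and was 9.79 ± 0.803 in Parental, 10.7 ± 1.58 in IDH1R132H and 6.15 ± 1.67 in IDH2R172K, so IDH2R140Q alone was high. KYNU, kynureninase of tryptophan breakdown, stood at 29.9, 28.6 and 30.03 TPM in IDH2R140Q and 1.69, 2.83 and 2.86 TPM in IDH2R140W (3.16), and LARP6, which binds collagen mRNA, at 19.01, 17.1 and 15.5 TPM in IDH2R140Q and 0, 0.67 and 1.08 TPM in IDH2R140W (3.58). AL133493.2, RP11-750H9.5 and RP11-462G2.1, transcripts with no GENCODE 29 match, differed by 3.09, −4.16 and −3.92.

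**Figure D4:**
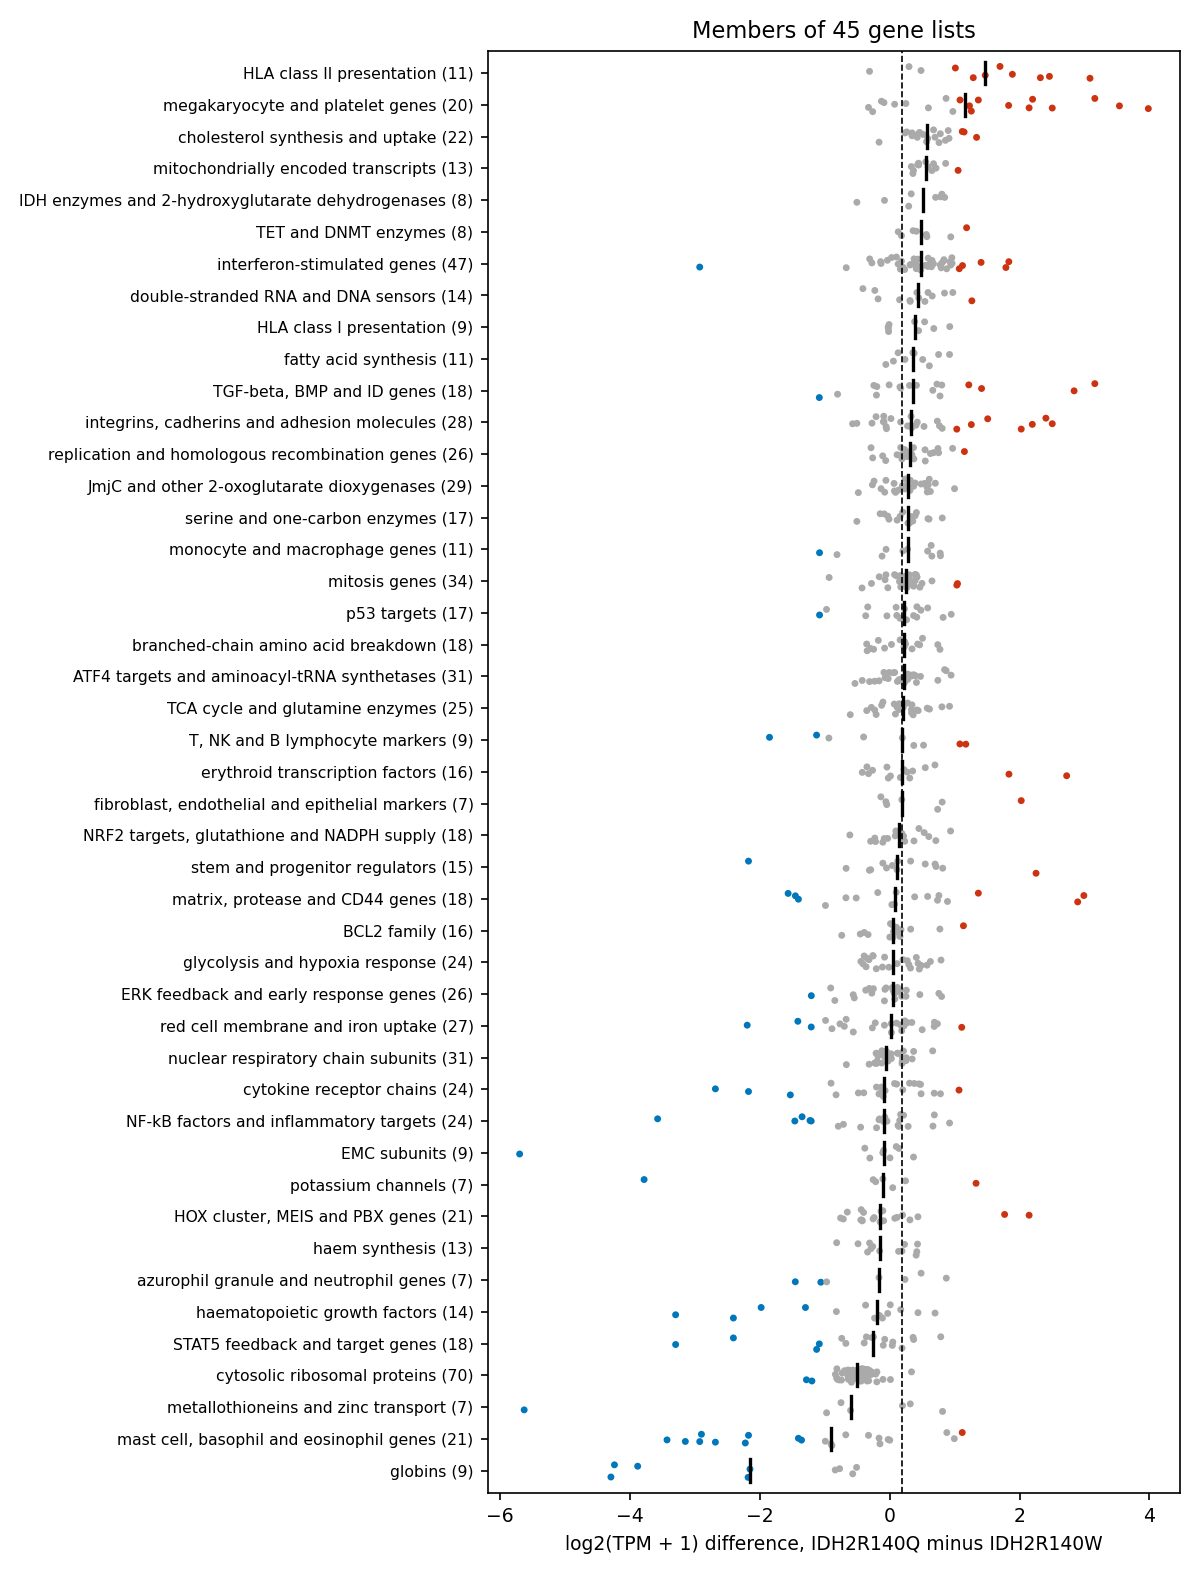
Members of each gene list, 1 point per tested gene at its log2(TPM + 1) difference, IDH2R140Q minus IDH2R140W (x axis), with called genes in red (higher) and blue (lower), a black bar at the list's median and the tested number in brackets. The dashed line is the median of all symbols at 0.19; HLA class II and platelet genes lie to its right, and globins, mast cell and ribosomal protein genes to its left.

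Ribosomal protein genes were lower in IDH2R140Q in nearly every case, 67 of 70 with every library below those of IDH2R140W (11.7% of all symbols), by a median −0.70 relative to all symbols. The size of this shift depended on the scaling. It was −0.73 after median-ratio scaling, with 6 members called lower, and −0.29 after quantile normalisation, with 2. Without such rescaling 2 were called. RPS20 and RPL7 were called, at −1.28 and −1.20, and the other 68 were not. RPL7 stood at 1226, 1207 and 1209.7 TPM in IDH2R140Q and 2702, 2737 and 2925 TPM in IDH2R140W. Both lie in a run of chromosome 8 whose median was −0.26. Mitochondrially encoded transcripts were higher, 11 of 13 with every library above (37.2% of all symbols) and a median 0.37 relative to all symbols, with MT-ND5, a complex I subunit, called at 1343, 2282 and 1372 TPM in IDH2R140Q and 985, 916 and 520.1 TPM in IDH2R140W (1.05). MT-ND5 was not called without IDH2R140Q replicate 2 (0.80), the library with the highest mitochondrial share, or without IDH2R140W replicate 3 (0.76). Its call was also lost with median-ratio scaling, with library weights and after rescaling without ribosomal protein genes. Since TPM is a share of a total, the ribosomal difference and the opposite shift of other genes cannot be told apart from each other.

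Calls were not spread evenly over the genome. Chromosome 20 held 338 tested protein-coding genes, and their median difference was 0.83 against 0.20 on the other chromosomes. Of these genes 314 were above 0, 113 were called higher (33.4%) and 4 lower. Chromosome 20 thus held 20.3% of the higher protein-coding calls and 2.87% of the tested protein-coding genes. In windows of 25 consecutive genes, joined into runs where their median lay 0.4 or more from that of all protein-coding genes, the shift ran from APMAP to PCMTD2 (chr20:24962925-64287821), 237 genes with a median of 0.97. Against Parental the chromosome's median was 0.74 in IDH2R140Q and −0.06 in IDH2R140W, so of these 2 lines IDH2R140Q stood away. Protein-coding genes of chromosome 20 took 3.01% to 3.04% of TPM in IDH2R140Q and 1.97% to 1.98% in IDH2R140W. Their share was 2.17% to 2.18% in Parental, 2.71% to 2.75% in IDH1R132H and 2.52% to 2.57% in IDH2R172K. A share above Parental was thus not particular to IDH2R140Q.

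Among the genes named here, DNMT3B, MMP9, ID1, AURKA, UBE2C and SAMHD1 lie on chromosome 20. AURKA, a mitotic kinase, and UBE2C, a ubiquitin-conjugating enzyme of mitotic exit, were the 2 called of 34 mitosis genes, at 1.04 and 1.03 (5.69% of all symbols were called). Neither was called after median-ratio scaling (0.83 and 0.82), and AURKA was not called without IDH2R140W replicate 3 (0.93). SAMHD1, a dNTP hydrolase, differed by 1.27. ID1 was lower, against the direction of the chromosome's median. With the symbols of chromosome 20 left out, 725 symbols were called, 507 higher and 218 lower. Chromosome 10 went the other way, with a median of −0.16 over 442 genes against 0.22 elsewhere. In all, 8 runs of windows were shifted upwards and 8 downwards, and several held other genes named here. On chromosome 2, IDH1 lies in the run from BMPR2 to XRCC5 (37 genes, median 0.58), D2HGDH in the run from PER2 to D2HGDH (25 genes, median 0.64), MYCN in the run from ROCK2 to C2orf44 (25 genes, median 0.62), ITGA6 in the run from CD302 to CDCA7 (48 genes, median 0.61) and IL1A in the run from POLR1B to UGGT1 (41 genes, median 0.60). TFRC lies in the run from ECE2 to LMLN (70 genes, median 0.63) on chromosome 3, where IDH2R140W stood −0.42 against Parental. RPS20, RPL7, CA1 and CA2 lie in the run from POLB to TMEM67 (101 genes, median −0.26) on chromosome 8, where IDH2R140Q stood −0.21 against Parental. SRGN and PLAU lie in the run from RUFY2 to PCGF5 (107 genes, median −0.23) on chromosome 10, and BTBD6 and IFI27 in the run from LIN52 to PACS2 (140 genes, median −0.27) on chromosome 14, where IDH2R140W stood 0.24 against Parental. LIF and OSM lie in the run from CRYBA4 to DUSP18 (35 genes, median −0.19) on chromosome 22. Of the called genes among these, IL1A and BTBD6 went against the median of their run.

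**Figure D5:**
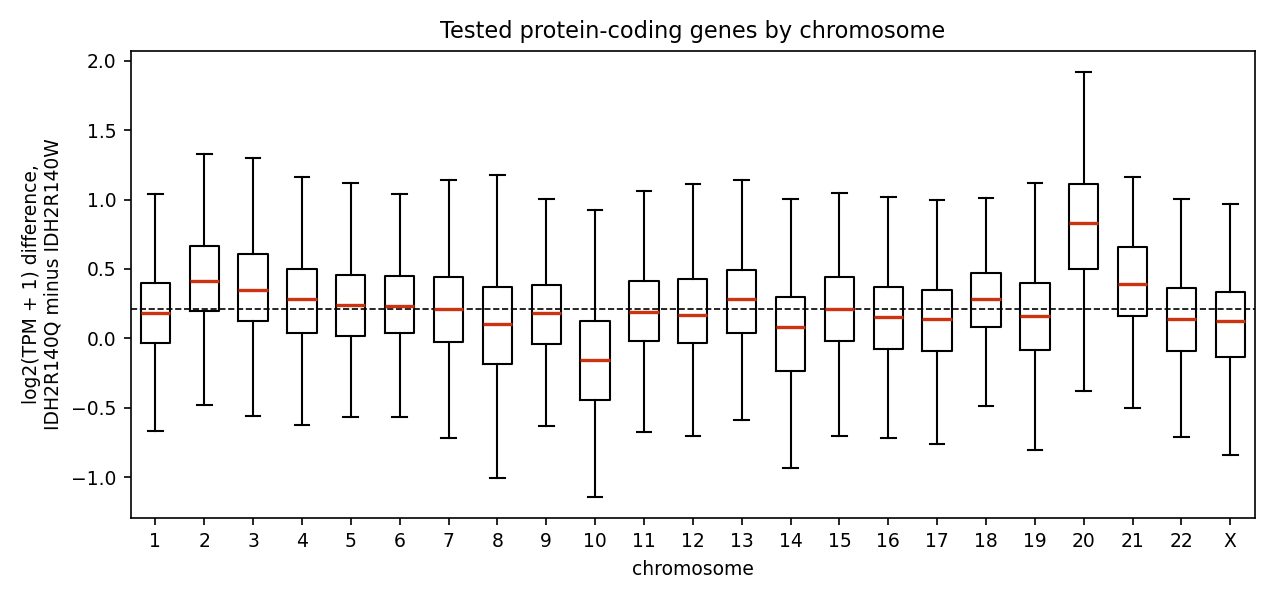
Differences of the tested protein-coding genes on the log2(TPM + 1) scale, IDH2R140Q minus IDH2R140W (y axis), by chromosome (x axis). Boxes span the quartiles with the median in red, whiskers reach the most extreme gene within the usual multiple of the box, points beyond are not drawn, and the dashed line is the median of all protein-coding genes. The box of chromosome 20 (median 0.83) lies highest and that of chromosome 10 (median −0.16) lowest.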

How the data were processed

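Poly(A) RNA of 15 TF-1 libraries was sequenced, and the 5 groups of 3 were taken from the genotype in the labels. The authors deposited 1 table of TPM values by gene symbol. Per the submitters' processing notes the build was hg38 and the tools were DESeq2, RSEM, HTSeq and STAR 2.7.3, with their roles unstated. The annotation release is not given in the sources used here. TPM holds no read depth, so counting error is unknown, and a change in abundant genes moves all others.

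Rows that share a symbol were summed (56624 symbols from 63568 rows, 6 ambiguous date-like rows left out). Symbols at 1 TPM or more in at least 3 of the 15 libraries were tested, 14881 in all, 224 of them from several rows, and GENCODE 29 located 13070 (87.8%). limma 3.58.1 in R 4.3.3 was fitted to log2(TPM + 1) of all 15 libraries with a mean for each group, a variance trend and Benjamini-Hochberg adjustment. The procedure was tested on simulated data. Promoter windows came from RefSeq (GRCh38.p14). Some members of the lists are counted but their values are not reported here.

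Genes named are IDH1 and IDH2, the 12 strongest rises and 12 strongest falls among called symbols with 10 TPM or more in the higher group and no overlap, and up to 4 called members per list. Other list members are given beside their list's count. The comparison, the 45 lists and this rule were chosen with earlier results of these data known. Alternatives were a pseudocount of 0.1, a filter at 5 TPM or none, median-ratio, quantile and globin-free and mitochondria-free scaling, the 6 libraries alone, no trend, library weights, a block for replicate number, symbols on a single row, and each library left out. Leaving out chromosome 20 and rescaling without ribosomal protein genes were added after the data were seen.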

Additional observations from a re-analysis of the deposited data

How the results depend on the processing

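Of the 94 symbols named by the rule 92 were called, and 76 of these kept their direction and their call in every alternative that tested them. Of all 94, 0 reversed, which the choice of called symbols from the same libraries made likely in advance. The counts moved by over 1.5 times in 3 settings: with a pseudocount of 0.1, 1298 symbols were called and 971 were higher in IDH2R140Q; median-ratio scaling gave 393 higher and 345 lower; and quantile normalisation 374 higher and 379 lower. Rescaled without ribosomal protein genes, 553 were higher and 296 lower. Leaving out each library in turn gave 782 to 987 called symbols, 542 to 757 higher and 215 to 242 lower. The labels give the groups the same replicate numbers, and same-numbered libraries of the 2 lines had deviations correlated at 0.0510, 0.0396 and 0.0857, so the numbers were not taken as pairs, although each library correlated best with its own number. With the replicate number as a block 847 symbols were called, 625 higher and 222 lower. Runs of windows of 50 genes in place of 25 gave chromosome 20 a median of 0.95 over 253 genes. Unknown depth limits all genes at low TPM, for which no counting interval can be given.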

Other observations

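Metabolic and stress gene lists held 0 called members in limma's test, where 5.69% of all symbols were called. These were the lists of ATF4 targets and aminoacyl-tRNA synthetases (31 tested, 14 with an adjusted p under 0.05 at any fold), NRF2 targets and glutathione enzymes (18 tested, 7), serine and one-carbon enzymes (17, 8), branched-chain amino acid breakdown (18, 8), fatty acid synthesis (11, 7), glycolysis and the hypoxia response (24, 12), nuclear respiratory chain subunits (31, 6) and haem synthesis (13, 10), against 32.9% over all symbols at any fold. All 7 fatty acid synthesis genes that passed without a fold threshold were higher in IDH2R140Q, and their list's median was 0.18 relative to all symbols. Haem synthesis genes, by contrast, stood at −0.34, with 6 of the 10 lower.

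Some markers of cell types that TF-1 should lack were called. Of 9 tested lymphocyte markers 2 were called higher and 2 lower, together 44.4% against 5.69% of all symbols, and 6 passed at any fold. Of the 20 listed, 12 were under 1 TPM in both lines and 3 are listed at 0 in all 15 libraries. CD3D, a T cell receptor chain, stood at 0.45, 2.90 and 2.76 TPM in IDH2R140Q and 9.38, 7.25 and 10.7 TPM in IDH2R140W (log2 difference −1.85), with Parental at 68.4 ± 12.4 TPM and IDH2R172K at 52.7 ± 3.68. CD79B, a B cell receptor chain, was 1.12 ± 0.285 against 3.69 ± 1.11 (−1.13), while CD22, a B cell lectin, and PAX5, a B cell factor, were higher, at 1.08 and 1.17. CD22 was not called without IDH2R140W replicate 3 (0.99), nor after median-ratio scaling or quantile normalisation. Of 11 tested monocyte and macrophage genes 1 was called, CD68, a lysosomal membrane protein, at 33.4 ± 5.01 against 71.6 ± 8.72 TPM (−1.08), and it was not called without IDH2R140Q replicate 3 (−0.998).

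The lists of replication, p53 target and ERK feedback genes had 3.85%, 5.88% and 3.85% of members called, near the 5.69% of all symbols. MCM6, a subunit of the replicative helicase, was the 1 called of 26 replication and recombination genes, at 245, 226 and 255 TPM in IDH2R140Q and 113, 108 and 104 TPM in IDH2R140W (log2 difference 1.15, SE 0.07, adjusted p = 2.21e-08, limma), and median-ratio scaling put it at 0.94. BTG2, an antiproliferative target of p53, was the 1 called of 17 p53 targets, at 3.38 ± 0.0666 against 8.31 ± 1.06 TPM (−1.08). EGR3, an early response factor, was the 1 called of 26 ERK feedback genes (−1.21). KCNQ1, a potassium channel, was higher at 2.74 ± 1.33 against 0.423 ± 0.0850 TPM (1.33), opposite to KCNH2.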
